A study of Rattus norvegicus with 10 samples.

Results

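Cd40, Cd80, Cd86, Cd4, Fcgrt, Fcgr2b, Fcer1g, Icam1 and Vcam1 encode surface proteins through which microglia, the resident macrophages of the brain, meet T cells, antibodies and other leukocytes. Members were taken by name: every probe set, a group of short probes that together measure 1 transcript, whose only gene symbol in the platform annotation was one of these 9. That gave 13 of the 8799 probe sets on the array, for 8 of the 9 genes and of the 4736 genes that the array names. Cd40, Cd80, Fcgr2b and Cd4 had 1 probe set each, Cd86, Icam1 and Vcam1 had 2 each and Fcgrt had 3. Fcer1g was not analysed here, because it was the only symbol of none of the annotated probe sets. The names of 5 of the 13 probe sets carry a suffix (_g_at or _s_at) that marks probes shared with other probe sets or transcripts.

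Both groups were primary microglia grown from neonatal rat brain, with the tissue of a single brain in each flask, in medium with 15% fetal calf serum that was renewed on days 7 and 11, and plated on day 15 at 100000 cells a dish. Rat strain and genotype were not given in the sources used here. Control dishes received fresh medium alone (5 independent cultures, numbered 1, 2, 3, 5 and 6, with 1 array each). The other dishes received fresh medium with interferon gamma (IFN-gamma), a cytokine of T cells and natural killer cells, at 100 U/ml for 16 hours (3 cultures, of which culture 1 was hybridised to 3 technical arrays, 1a, 1b and 1c, that were averaged to 1 value).

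IFN-gamma binds a receptor on the surface of macrophages and microglia and changes the expression of many of their genes. CD40, CD80 and CD86 are costimulatory proteins: CD40 receives the CD40 ligand of T cells, while CD80 and CD86 engage CD28 and CTLA-4. CD4 is the coreceptor of helper T cells, and in rats also stands on macrophages and microglia. FcRn, the protein of Fcgrt, protects IgG and albumin from lysosomal breakdown, Fc gamma receptor IIb inhibits cells that bind immune complexes, and ICAM-1 and VCAM-1 are the ligands of leukocyte integrins.

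The deposited signals were not on a common scale. Array medians spanned 7.4 to 23.7, the lowest being that of control 3 and the highest that of technical array 1b. Control cultures had a mean of these medians of 15.3 ± 5.49 (SD, n = 5), against 17.9 ± 2.78 (SD, n = 3) after IFN-gamma (exact permutation p = 0.518, two-sided). As a measure of RNA quality, the log2 ratio of the 3' to the 5' probe sets differed (IFN-gamma minus control) by -0.166 for GAPDH and by 0.117 for beta-actin (exact permutation p = 0.25 and 0.518, two-sided). Levels below are therefore log2(signal + 16) after quantile normalisation, on which a signal of 0 is 4, and fold changes on this scale understate those of dim genes. Macrophage markers were detected: Ctss had a mean level of 10.77, C1qb 9.20 and Cd14 8.50, and only 1 of 11 measured markers had a mean signal below 16, although Cx3cr1, P2ry12 and Csf1r were dim (5.09, 5.28 and 4.79). The summed signal of these 11 ran from 2514 to 3061 in the controls and from 4282 to 4704 with IFN-gamma, and 2 of them, C1qb and C1qc, passed the test. The sum follows the brightest markers, Ctss and C1qb, and not the 11 alike. With IFN-gamma 5 of the 11 lay wholly above the controls and 0 wholly below, against 4.28% and 3.4% of all probe sets. These shares are not like for like, since each marker stood by its brightest probe set. Of all 8740 probe sets tested only 4585 had a mean signal above 16. Cd14, Cx3cr1 and P2ry12 had negative log2 fold changes (-0.34, -0.29 and -0.65), none past the threshold. Since RNA was taken from whole cultures, fewer cells of a type and less RNA per cell cannot be told apart.

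Of the 8 genes measured, Cd40 and Icam1 rose with IFN-gamma and Fcgrt and Cd4 fell, each by at least 1 probe set, while Cd80, Cd86, Fcgr2b and Vcam1 did not pass the test by any. The 13 probe sets held 2 that were higher and 3 that were lower at an adjusted p under 0.05 (limma, Benjamini-Hochberg over 8740 probe sets), where 0.927% of all probe sets tested were higher, 0.606% lower and 1.53% either. The 3 IFN-gamma cultures lay wholly above the 5 controls in 3 of the 13 and wholly below in 4, against 4.28% and 3.4% of all probe sets. The median log2 fold change of the 13 was 0.028, beside -0.017 over all probe sets tested. These counts depended on the scaling. With array medians subtracted in place of quantile normalisation 2 of the 13 were higher and 0 lower, and with no scaling between arrays 1 was higher and 0 lower; the 3 lower probe sets kept a negative sign in both. Scaled to a common trimmed mean, 2 were higher and 3 lower, as in the quantile-normalised values. Higher calls made up 60.4% of all calls over the array, 67.8% with the trimmed mean, 78.7% with array medians subtracted and 97.4% with no scaling, which moved the median of all probe sets to 0.10.

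**Figure D1:**
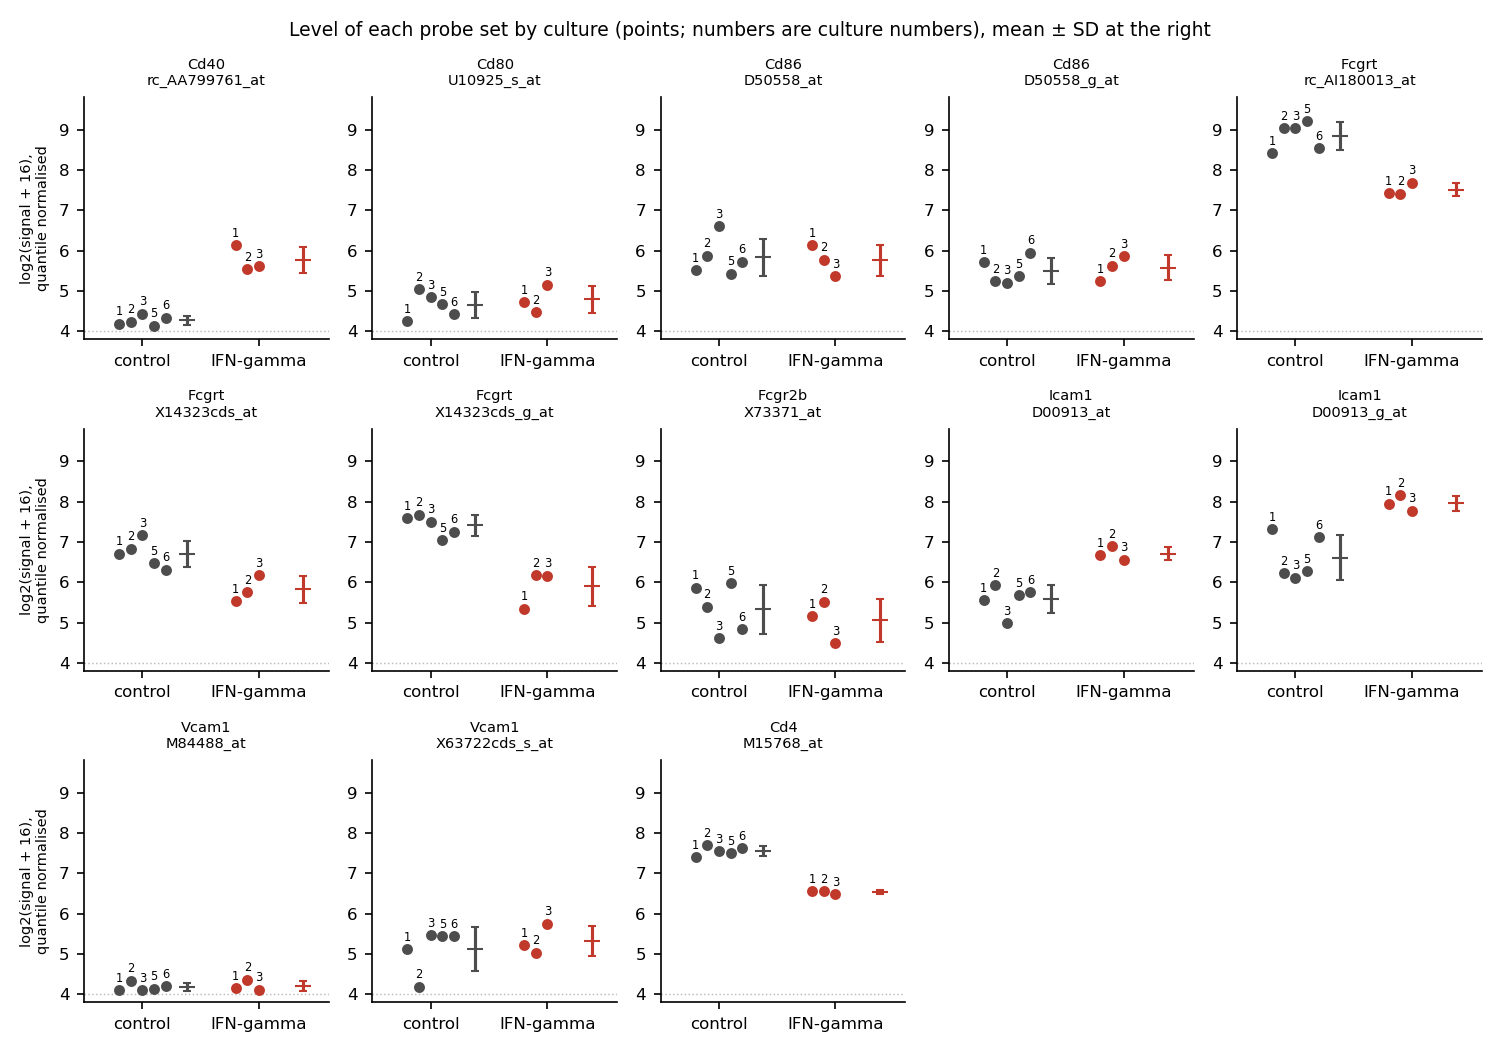
Each panel plots the quantile-normalised log2(signal + 16) of 1 probe set (y axis) in the 5 control and 3 IFN-gamma cultures (x axis), points labelled by culture number, with the mean ± SD beside them and the value of a signal of 0 as a dotted line. The IFN-gamma cultures lie wholly above the controls in the Cd40 and both Icam1 panels, wholly below them in the Cd4 and all 3 Fcgrt panels, and overlap them in the other 6.

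**Figure D2:**
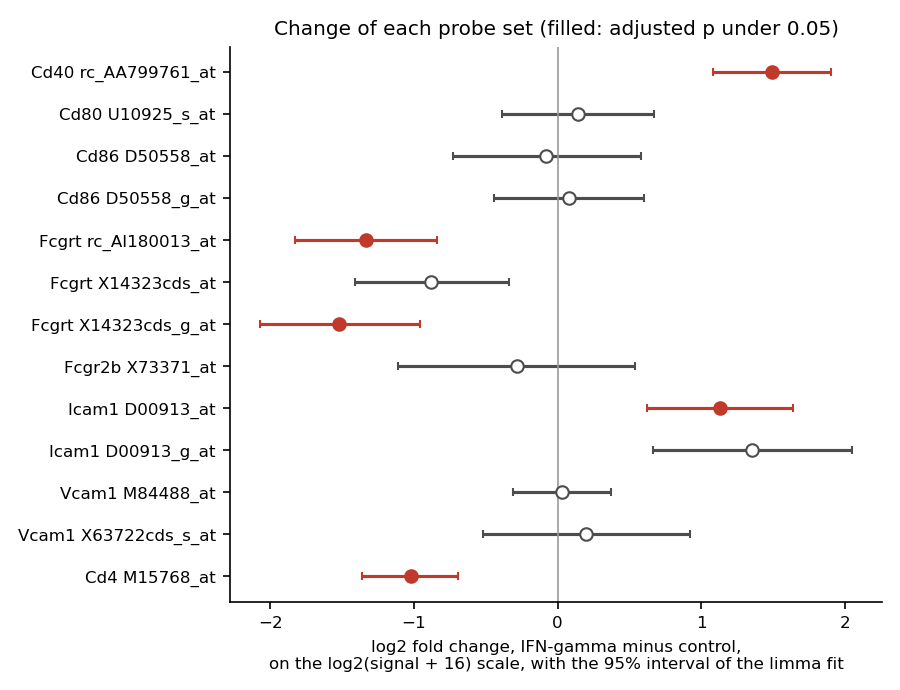
Points are the log2 fold changes (IFN-gamma minus control) of the 13 probe sets with 95% intervals from limma, filled where the adjusted p was under 0.05. The filled points are Cd40 and 1 Icam1 probe set to the right of 0 and Cd4 and 2 Fcgrt probe sets to the left.

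The costimulatory receptor gene Cd40 (probe set rc_AA799761_at) was near the floor in the controls and brighter with IFN-gamma. Its deposited signal was 2.6, 2.2, 3.1, 1.9 and 5.2 in control cultures 1, 2, 3, 5 and 6. With IFN-gamma it was 45.3, 136.8 and 24.2 on arrays 1a, 1b and 1c, 32.7 in culture 2 and 45.9 in culture 3. The lowest IFN-gamma array was thus brighter than every control on the deposited scale, before any scaling between arrays. After normalisation the controls lay at 4.19, 4.24, 4.44, 4.14 and 4.34 and the IFN-gamma cultures at 6.13, 5.54 and 5.61, so the groups did not overlap and the controls stood at the floor. Cd40 rose from 4.27 ± 0.12 (SD, n = 5) to 5.76 ± 0.32 (SD, n = 3), a log2 fold change of 1.49 ± 0.183 SE (95% interval 1.08 to 1.90, adjusted p = 0.00301). Because the control level is at the floor, the size follows the constant added before the logarithm: it was 3.23 with 1 added (adjusted p = 0.00795) and 0.62 with 64 added (adjusted p = 0.00759).

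Cd80 and Cd86, the ligands of CD28, did not pass. Cd80 (U10925_s_at) had a deposited signal under 16 in all 5 controls and on 4 of 5 IFN-gamma arrays, the exception being 26.7 in IFN-gamma culture 3. Its normalised level was 4.25, 5.04, 4.85, 4.68 and 4.43 in the controls and 4.73, 4.48 and 5.16 with IFN-gamma, ranges that overlap (log2 fold change 0.14, 95% interval -0.39 to 0.67, adjusted p = 0.932). At this brightness a fall could hardly be seen.

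Both probe sets of Cd86 overlapped between the groups. By D50558_at the controls lay at 5.52, 5.88, 6.60, 5.43 and 5.73 and the IFN-gamma cultures at 6.13, 5.78 and 5.37 (log2 fold change -0.08, 95% interval -0.73 to 0.58, adjusted p = 0.976). By D50558_g_at the controls lay between 5.21 and 5.95 and the IFN-gamma cultures between 5.24 and 5.87 (log2 fold change 0.08, 95% interval -0.44 to 0.60, adjusted p = 0.968). Both intervals leave out a change as large as that of Cd40.

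Whether the genes changed unequally was tested on the difference between probe sets within each culture, for 5 pairs of brightest probe sets picked after their values were seen (exact permutation tests, two-sided, for which the smallest p is 0.018). Cd40 moved by 1.35 more than Cd80 and by 1.57 more than Cd86 on the log2 scale (exact permutation p = 0.018 each, 0.03 adjusted over the 5 pairs). With no scaling between arrays these differences were 1.38 and 1.47, with the same p-values. Since Cd40 in the controls and Cd80 on nearly all arrays lay near the floor, the sizes follow the added constant: they were 2.865 and 3.323 with 1 added and 0.57 and 0.671 with 64 added (exact permutation p = 0.018 each). The direction, not the size, is what these comparisons describe. Cd40 alone already separated the groups and the pairs were picked with that known. The p-values are therefore no separate support, and adjustment over the 5 pairs does not cover the choice.

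Cd4 (M15768_at), the T cell coreceptor gene that rat macrophages also use, was lower with IFN-gamma. The controls lay at 7.40, 7.70, 7.55, 7.50 and 7.63 and the IFN-gamma cultures at 6.56, 6.56 and 6.48. The groups did not overlap. The range was 0.09 over the IFN-gamma cultures and 0.30 over the controls, both below the 0.46 over the technical arrays of IFN-gamma culture 1. The narrow spread is therefore no measure of how closely cultures repeat. The level fell from 7.56 ± 0.117 (SD, n = 5) to 6.53 ± 0.0509 (SD, n = 3), a log2 fold change of -1.02 ± 0.148 SE (95% interval -1.36 to -0.69, 2.03-fold lower, adjusted p = 0.00792). On the deposited scale the groups overlapped, at 245.7, 117.9, 55.1, 166.9 and 226.2 in the controls and 50.8, 197, 46.7 (arrays 1a, 1b, 1c), 92.4 and 111.4 with IFN-gamma. The log2 fold change was -0.953 when arrays were scaled to a common trimmed mean, and the call held (adjusted p = 0.0282). It was -0.556 with no scaling (adjusted p = 0.865) and -0.678 with array medians subtracted (adjusted p = 0.462), and the call was lost. The call also ended on leaving out IFN-gamma culture 1 (adjusted p = 0.0502) or 3 (adjusted p = 0.0609).

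Of 10 measured T cell markers 0 passed the limma test and 0 had an unadjusted p under 0.05. At that unadjusted threshold 5.74% of all probe sets were higher and 4.76% lower. The summed signal of the 10 markers ran from 159 to 268 in the controls and from 171 to 267 with IFN-gamma. The mean signal was below 16 for 5 of the 10, among them Cd3d, a chain of the T cell receptor complex, at 4.42 in the controls and 4.54 with IFN-gamma, Cd2 (4.20 and 4.36) and Cd8a (4.56 and 4.57). It was above 16 for the other 5, which were Cd3g (4.97 and 5.11), Cd8b (5.43 and 5.61), Cd5 (5.09 and 4.82), Ctla4 (5.23 and 5.76) and Lck. Lck, the kinase that CD4 carries, lay at 6.48 ± 0.393 (SD, n = 5) and 6.40 ± 0.345 (SD, n = 3; adjusted p = 0.971).

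Fcgrt, the gene of the IgG-salvaging receptor FcRn, was lower by each of its 3 probe sets, of which 2 passed. By rc_AI180013_at the controls lay at 8.41, 9.03, 9.03, 9.21 and 8.54 and the IFN-gamma cultures at 7.43, 7.41 and 7.69. This probe set fell from 8.85 ± 0.346 (SD, n = 5) to 7.51 ± 0.159 (SD, n = 3), a log2 fold change of -1.33 ± 0.221 SE (95% interval -1.83 to -0.84, adjusted p = 0.0177). The groups did not overlap after normalisation, although the deposited signals did (134.4 to 634.9 in the controls, 83.6 to 319.3 on the IFN-gamma arrays). Its call held with the trimmed mean (log2 fold change -1.119, adjusted p = 0.0193). It was lost with no scaling (log2 fold change -0.688, adjusted p = 0.851), with array medians subtracted (-0.811, adjusted p = 0.39) and without IFN-gamma culture 1, 2 or 3 (adjusted p = 0.105, 0.118 and 0.0671).

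The second, X14323cds_g_at, had controls at 7.59, 7.67, 7.50, 7.04 and 7.25 and IFN-gamma cultures at 5.34, 6.18 and 6.16. Its log2 fold change was -1.52 ± 0.245 SE (95% interval -2.07 to -0.96, adjusted p = 0.0161). The 3 technical arrays of IFN-gamma culture 1 differed widely here, at 5.06, 6.40 and 4.57, a range of 1.83, wider than the difference between the groups and than the 0.63 among the 5 control cultures. Without IFN-gamma culture 1 the log2 fold change was -1.233 (adjusted p = 0.0614). The call held with the trimmed mean (-1.521, adjusted p = 0.019), and was lost with array medians subtracted (-1.207, adjusted p = 0.115) and with no scaling (-1.084, adjusted p = 0.666). The third, X14323cds_at, had controls between 6.31 and 7.17 and IFN-gamma cultures at 5.53, 5.75 and 6.18, below every control, and did not pass (log2 fold change -0.88, 95% interval -1.41 to -0.34, adjusted p = 0.147).

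FcRn pairs with beta-2-microglobulin, the product of B2m and the light chain of class I molecules, and the genes of the 2 chains moved apart. B2m rose from 9.34 ± 0.2 (SD, n = 5) to 10.96 ± 0.188 (SD, n = 3; log2 fold change 1.63, adjusted p = 0.0017). The change of Fcgrt minus that of B2m within cultures was -2.96 on the log2 scale (exact permutation p = 0.018, 0.03 adjusted over the 5 pairs). Because B2m lay wholly above the controls with IFN-gamma and Fcgrt wholly below, this difference had to separate the groups. Its p therefore adds no support to the separate results, and the adjustment does not cover the choice of the pair. With no scaling this difference was -3.06 (exact permutation p = 0.018).

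Fcgr2b (X73371_at), the inhibitory IgG receptor gene, varied as much within groups as between them. It was dim, with a deposited signal below 16 on 2 control and 2 IFN-gamma arrays (lowest 4.2 and 8.4). The controls lay at 5.86, 5.39, 4.61, 5.98 and 4.83 and the IFN-gamma cultures at 5.15, 5.52 and 4.48 (log2 fold change -0.28, 95% interval -1.11 to 0.54, adjusted p = 0.895). The interval is wide enough to hold a fall of 2-fold. The change of Fcgrt was not shown to differ from that of Fcgr2b (difference -1.05, exact permutation p = 0.089, 0.11 adjusted over the 5 pairs). With no scaling this difference was -0.45 (exact permutation p = 0.32).

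Upstream sequences are shown for Icam1, Vcam1 and Fcgrt because Icam1 passed upward, Fcgrt passed downward and Vcam1 did not pass. RefSeq start-site windows (GRCr8) were held for 5 of the 8 measured members, and the 250 bases before the annotated start are printed 5' to 3' on the gene's strand, with motif matches in capitals. Searched were the core of the gamma-activated sequence (GAS), TTCNNNGAA, and the interferon-stimulated response element (ISRE) core, which is GAAA, any 2 bases and GAAA. The NF-kB consensus was searched as GGGRNNYYCC, where R is A or G, Y is C or T and N is any base. Only exact matches on either strand were marked, so sequences close to a pattern are not in capitals. No matches of different motifs overlapped.
Icam1, GRCr8 chr8:27829595-27829844, plus strand: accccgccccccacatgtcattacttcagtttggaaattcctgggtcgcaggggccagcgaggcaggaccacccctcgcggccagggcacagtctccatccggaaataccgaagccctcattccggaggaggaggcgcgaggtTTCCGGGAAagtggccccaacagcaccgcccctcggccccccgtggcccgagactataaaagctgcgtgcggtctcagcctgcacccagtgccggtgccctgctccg
Vcam1, GRCr8 chr2:206742784-206743033, minus strand: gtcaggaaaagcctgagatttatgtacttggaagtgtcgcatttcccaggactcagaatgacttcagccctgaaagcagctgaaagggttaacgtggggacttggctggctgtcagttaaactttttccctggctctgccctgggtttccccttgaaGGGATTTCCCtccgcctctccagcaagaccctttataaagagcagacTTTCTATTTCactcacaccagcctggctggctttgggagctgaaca
Fcgrt, GRCr8 chr1:104720027-104720276, minus strand: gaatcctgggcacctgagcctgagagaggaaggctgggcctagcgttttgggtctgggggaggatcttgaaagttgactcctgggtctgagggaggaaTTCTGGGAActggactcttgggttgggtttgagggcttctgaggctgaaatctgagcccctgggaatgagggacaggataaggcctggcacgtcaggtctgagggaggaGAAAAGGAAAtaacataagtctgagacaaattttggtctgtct

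In the Icam1 window the capitals mark 1 GAS match, TTCCGGGAA, 107 to 99 bases before the start. In the Vcam1 window they mark 1 NF-kB match, GGGATTTCCC, at 93 to 84 and 1 ISRE match at 46 to 37, and no GAS match. The Fcgrt window held 1 GAS match, TTCTGGGAA, at 152 to 144 and 1 ISRE match, GAAAAGGAAA, at 43 to 34. Of the other windows, Cd80 had 1 GAS match in the first and 1 ISRE match in the second of its annotated starts, and Cd86 had 1 NF-kB match. Of 33469 rat windows of the same length 7.67% held a GAS match, 6.33% an NF-kB match and 3.41% an ISRE match. Icam1, which rose, and Fcgrt, which fell, each held a GAS match, and a match is only a description of the letters.

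Icam1, the gene of the adhesion molecule that binds the leukocyte integrins LFA-1 and Mac-1, was higher with IFN-gamma by both of its probe sets, of which 1 passed. By D00913_at the controls lay at 5.56, 5.93, 4.99, 5.67 and 5.75 and the IFN-gamma cultures at 6.67, 6.89 and 6.56. This probe set rose from 5.58 ± 0.357 (SD, n = 5) to 6.71 ± 0.17 (SD, n = 3), a log2 fold change of 1.13 ± 0.226 SE (95% interval 0.62 to 1.64, adjusted p = 0.0459). Its deposited signal, 7.4 to 46.1 in the controls, was 47.4 to 238.1 on the 5 IFN-gamma arrays, so the groups did not overlap even without scaling, but only narrowly.

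By D00913_g_at the controls lay at 7.31, 6.23, 6.11, 6.27 and 7.12 and the IFN-gamma cultures at 7.95, 8.15 and 7.77, above every control (log2 fold change 1.35 ± 0.309 SE, 95% interval 0.66 to 2.05, adjusted p = 0.0819). Control cultures 1 and 6 stood above the other 3 controls in this probe set. In 13 of 22 other settings D00913_at was not past the threshold, which included the omission of control culture 1, 5 or 6 (adjusted p = 0.0784, 0.0956 and 0.0894) or of IFN-gamma culture 1, 2 or 3 (adjusted p = 0.169, 0.24 and 0.144). Without control culture 2 it passed, with an adjusted p that rounds to 0.05. D00913_g_at passed in 5 of 21, among them the omission of control culture 1 (adjusted p = 0.0344). Every one of these settings gave a positive log2 fold change, from 0.68 to 1.48 in the first and from 1.02 to 1.78 in the second.

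Vcam1, the ligand of the integrin VLA-4, did not pass by either probe set. M84488_at was at the floor on all 10 arrays, with a highest deposited signal of 4.6, and the controls averaged 4.18 ± 0.0959 (SD, n = 5) and the IFN-gamma cultures 4.21 ± 0.134 (SD, n = 3). By X63722cds_s_at the controls lay at 5.12, 4.19, 5.46, 5.44 and 5.44 and the IFN-gamma cultures at 5.22, 5.03 and 5.75, which overlap (log2 fold change 0.20, 95% interval -0.52 to 0.92, adjusted p = 0.925). Control culture 2 stood far below the other controls. The change of Icam1 exceeded that of Vcam1 by 1.15, a difference that did not pass (exact permutation p = 0.11, 0.11 adjusted over the 5 pairs), and by 1.42 with no scaling (exact permutation p = 0.071). Endothelial markers, which could carry both adhesion genes, had a summed signal of 78 to 169 in the controls and 82 to 137 with IFN-gamma, and 0 of 5 passed. The summed signal of 6 fibroblast markers was lower with IFN-gamma (120 to 146) than in the controls (170 to 228). By the brightest probe set 0 of 6 were past the threshold and 3 of 6 were lower at an unadjusted p under 0.05. At that unadjusted threshold 4.76% of all probe sets were lower. One dimmer probe set of Col1a1, M27207mRNA_s_at, passed (log2 fold change -1.20, adjusted p = 0.0239). The other Col1a1 probe sets did not, with log2 fold changes of -0.00 (Z78279_at, the brightest), -0.08 (Z78279_g_at) and -0.16 (rc_AI231472_s_at). The sum of 7 oligodendrocyte lineage markers ran from 138 to 255 in the controls and from 100 to 146 with IFN-gamma. Of these 0 of 7 were past the threshold and 3 were lower at an unadjusted p under 0.05, beside the same 4.76%. Sums over 7 astrocyte markers (106 to 187 and 116 to 139), 5 neuronal markers (69 to 157 and 68 to 103) and Cd79b, the 1 measured marker of B and dendritic cells (5 to 36 and 17 to 34), overlapped between the groups. The part of these cells in the members' values was not tested.

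**Figure D3:**
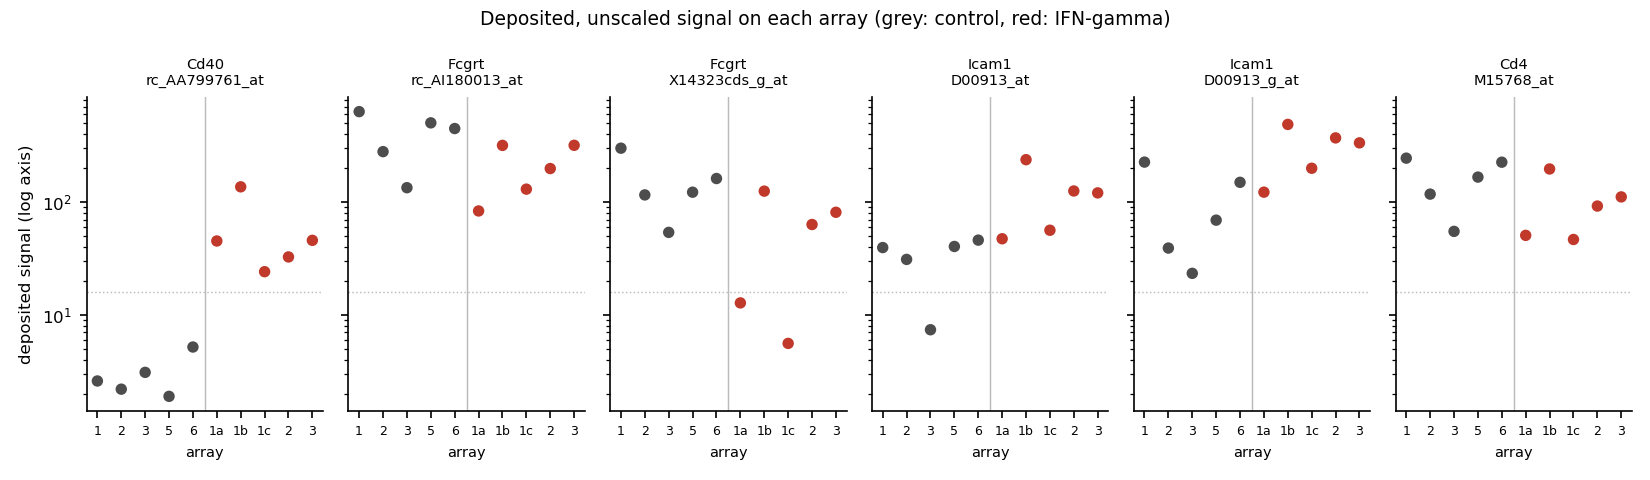
Deposited signal before any scaling (log y axis) on each of the 10 arrays (x axis; controls grey, IFN-gamma red, with 1a to 1c the technical arrays of culture 1) for 6 probe sets, with a dotted line at 16. Cd40 and the first Icam1 probe set separate the groups, whereas the Fcgrt, Cd4 and second Icam1 signals overlap before scaling.

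**Figure D4:**
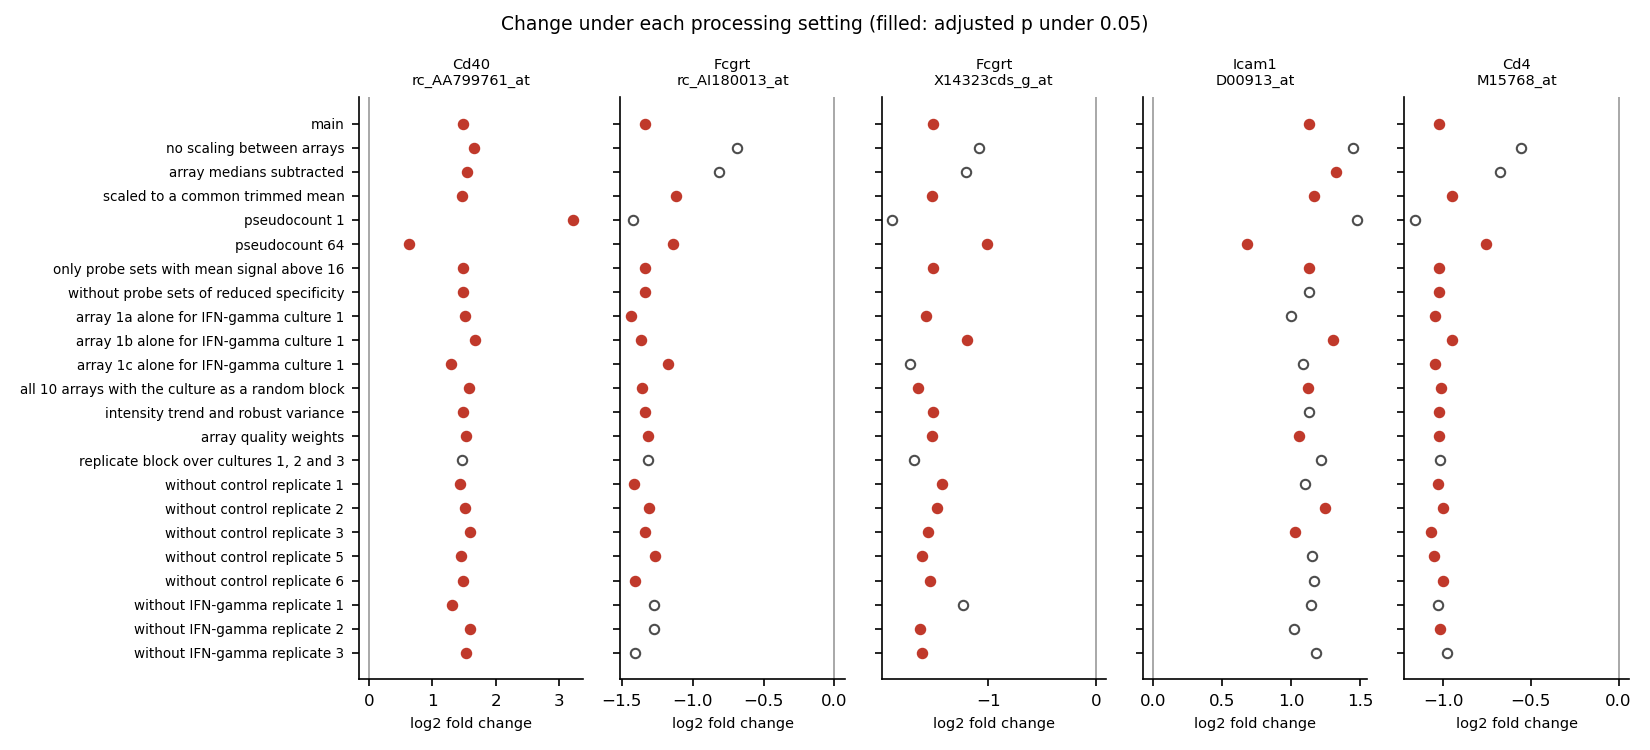
The log2 fold change (x axis) of each called probe set under each processing setting (rows), filled where the adjusted p was under 0.05. Cd40 is filled in all but the replicate block, and no point of any panel crosses 0.

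The range of the 3 technical arrays, which come from IFN-gamma culture 1 alone, describes that culture and not the others. It was wider than that of the 3 IFN-gamma cultures in 7 of 13 probe sets and wider than that of the 5 controls in 3 of 13. It was 0.88 for Cd40 and 0.46 for Cd4, each below the difference between the groups. It was 0.72 and 0.91 for the Icam1 probe sets and 0.78 for rc_AI180013_at of Fcgrt, again below the difference. For the called X14323cds_g_at of Fcgrt it was 1.83, above the difference of 1.52 in size.

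Genes around these receptors mostly did not pass. Of 12 measured genes of Fc receptor signalling 0 passed in limma, 4 were higher and 1 lower at an unadjusted p under 0.05, and the median log2 fold change was 0.22. At that unadjusted threshold 5.74% of all probe sets were higher and 4.76% lower. By brightest probe set, the 3 with the smallest adjusted p were kinase and phosphatase genes whose IFN-gamma cultures all lay above the controls. For Lyn, a kinase that phosphorylates Fc receptor chains, the log2 fold change was 1.03 (adjusted p = 0.0543), Fgr, a related kinase, 0.94 (adjusted p = 0.0819), and the phosphatase gene Ptpn6 0.99 (adjusted p = 0.246). Dimmer probe sets had 0.64 and 0.84 for Lyn (adjusted p = 0.307 and 0.323) and 0.87 for Ptpn6 (adjusted p = 0.168). In the Lyn probe set at 0.84 the groups overlapped. The IgE receptor chain gene Fcer1a was dim, at 5.06 in the controls and 4.37 with IFN-gamma (adjusted p = 0.393). Syk, the kinase that binds activating Fc receptor chains, had 0.46 (adjusted p = 0.52), and Inpp5d, the phosphatase that Fc gamma receptor IIb recruits, lay at 6.54 ± 0.152 (SD, n = 5) and 6.55 ± 0.137 (SD, n = 3; adjusted p = 0.998).

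Of 16 measured costimulation and checkpoint genes 0 passed in limma, and the median log2 fold change was 0.01. At an unadjusted p under 0.05, 1 was higher and 1 lower, beside 5.74% and 4.76% of all probe sets. The higher one was Nfkb1, an NF-kB subunit gene downstream of CD40 (6.37 ± 0.516 to 7.41 ± 0.293, adjusted p = 0.178). The lower one was Sirpa, the inhibitory receptor for CD47 (log2 fold change -0.79, adjusted p = 0.156). Of the partners of the costimulatory proteins, Cd40lg lay at 4.36 in the controls and 4.39 with IFN-gamma and Cd28 at 4.39 and 4.74 (adjusted p = 0.659), both near the floor. Ctla4 lay at 5.23 and 5.76 (adjusted p = 0.8). For Nfkbia, the NF-kB inhibitor gene, the log2 fold change was 0.39 (adjusted p = 0.713).

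Of 21 measured leukocyte adhesion genes 0 passed in limma, and the median log2 fold change was 0.02. At an unadjusted p under 0.05, 4 were higher and 2 lower, beside 5.74% and 4.76% of all probe sets. Itgam, the alpha chain of the ICAM-1 receptor Mac-1, had IFN-gamma cultures above every control (4.99 ± 0.24 to 5.77 ± 0.158, log2 fold change 0.79, adjusted p = 0.0951). Itgb1, a chain of the VCAM-1 receptor VLA-4, had -0.37 (adjusted p = 0.61). Cd9, a tetraspanin gene, had -0.91 (adjusted p = 0.187). Msn and Ezr, which link such receptors to actin, had 1.19 and 1.10 (adjusted p = 0.259 and 0.271). A dimmer Msn probe set, rc_AI639041_at, had -0.18 (adjusted p = 0.915). Itgal, Itgb2 and Itga4 were not analysed here. Of 12 measured genes that encode direct partners of the members' proteins B2m was the 1 past the threshold, beside 1.53% of all probe sets.

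**Figure D5:**
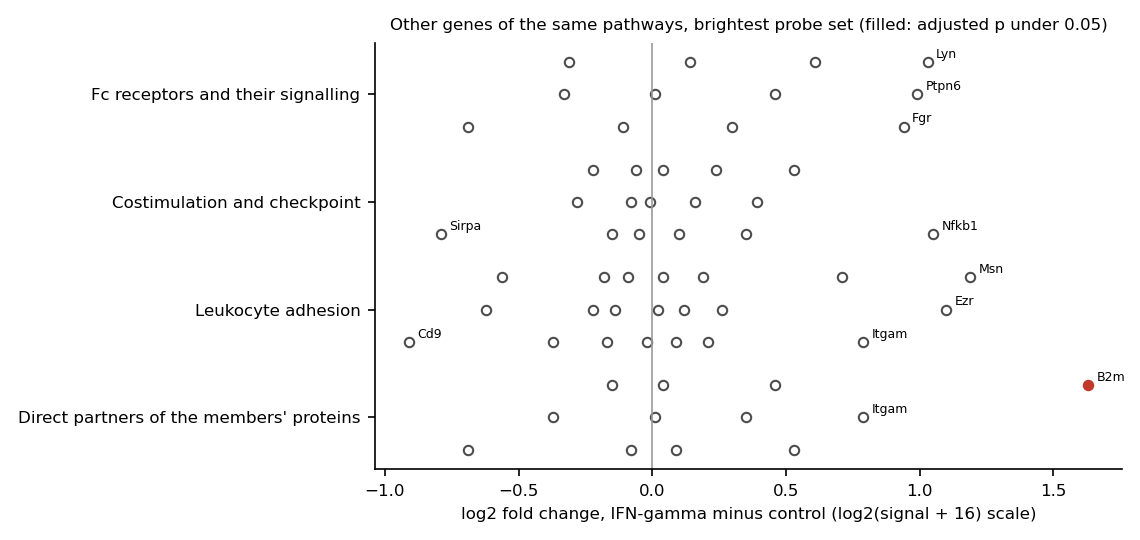
The log2 fold change (x axis) of each measured gene, by its brightest probe set, in 4 lists of related genes (y axis; vertical offsets only separate points), filled where the adjusted p was under 0.05. B2m, at 1.63, is the filled point.

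The genes most like each called member were found by the mean absolute difference between profiles over the 8 cultures, each set to its control mean, among 1194 probe sets of other named genes with a mean level above 6. This is a description, since any gene with a similar fold change comes out as alike. For Cd40 they were Psme2, of the proteasome activator PA28 (0.18 apart), and the class I genes RT1-S3 (0.19) and RT1-A (0.20). The probe sets of these class I genes may bind near-identical class I transcripts. Cd40 itself, at a mean level of 4.83, lay below the cut of 6 set for the other genes. Its log2 fold change was 3.23 with 1 added and 0.62 with 64 added. The match in size therefore rests on the constant chosen, and profiles with another constant were not compared. For Icam1 the nearest genes were Cebpb (0.15), RT1-M3-1 (0.20) and Ubxn1 (0.21). For Cd4 they were Gnas (0.07), the tetraspanin gene Cd63 (0.08) and Apoe (0.12). For Fcgrt they were Cd59b (0.17), Tcn2 (0.22) and Cd63 (0.24) by rc_AI180013_at, and the lysosomal membrane gene Lamp1 (0.20), Scarb1 (0.21) and Plau (0.25) by X14323cds_g_at.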

How the data were processed

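Each array's deposited values are linear intensities, 1 for every probe set. MAS5 and GCRMA appear in the submitters' processing notes without version or role; which made the intensities, and any scaling between arrays, are not given in the sources used here. After 16 was added and log2 taken, quantile normalisation was run over the 10 arrays and the technical arrays were averaged. The fit was limma 3.58.1 (statmod 1.5.0, R 4.3.3), lmFit and eBayes with group as the only term, two-sided, on 8740 probe sets after 59 array controls were left out, with Benjamini-Hochberg adjustment and a threshold of 0.05. The limma fit was tested on simulated data with independent normal noise, which did not test the scaling between arrays. No 2 arrays shared the same signal at more than 81 probe sets. The number of arrays limits the precision. Symbols came from the platform annotation; all 8 measured members matched RefSeq (GRCr8) by Entrez identifier with the same symbol. No build is named for the array design, so gene coordinates are not printed. Members, lists and tests were chosen with earlier results of these data known. Named were all members, up to 3 genes with the nearest profile to each called probe set, up to 4 genes with the smallest adjusted p from each of 4 related lists, and fixed partners of the members; Cd40lg and the single cell type markers were named after their values were seen. In a list each gene stood by its brightest probe set, whereas the shares set beside list counts cover all probe sets tested. Alternatives covered scaling, the added constant, filters, technical arrays, variance models, the replicate block and leaving out each culture.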

Additional observations from a re-analysis of the deposited data

Results flagged for a closer look

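In 1 of the 13 probe sets examined the lowest control stood far from the others. For X63722cds_s_at of Vcam1, control culture 2 lay at 4.19 while the other 4 controls lay between 5.12 and 5.46, a gap of 0.735 of the group's whole range, over the critical value of 0.71 for 5 samples. Its deposited signal there was 1.8, against 13.7 to 33.1 in the other controls. Chance gives such a gap in about 5% of groups. Without control culture 2 the log2 fold change of this probe set was -0.033.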

How the results depend on the processing

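Every called probe set kept its sign in all settings run, and no call of any of the 13 probe sets reversed. Beside 81 higher and 53 lower probe sets, no scaling gave 38 and 1, array medians 27 lower, an added constant of 1 gave 42 and 25, plain probe sets alone 39 and 20, and all 10 arrays with the culture as a random block 124 higher. Higher calls were 60.4% of all calls, 97.4% with no scaling and 78.7% with array medians. Leaving out 1 culture gave 47 to 105 higher and 21 to 48 lower. For Fcgrt the log2 fold change of rc_AI180013_at was -0.688 with no scaling, -0.811 with array medians and -1.419 with 1 added, and that of X14323cds_g_at -1.084, -1.207 and -1.899, and -1.728 with array 1c alone, all not past the threshold. For Cd4 it was -0.556, -0.678 and -1.164. For Icam1 by D00913_at it was 1.451 with no scaling, 1.479 with 1 added, 1.129 without probe sets of reduced specificity or with an intensity trend, 0.999 with array 1a alone and 1.087 with array 1c alone. Leaving out 1 culture gave -1.412 to -1.262 and -1.634 to -1.233 for the Fcgrt probe sets, -1.071 to -0.978 for Cd4 and 1.023 to 1.245 for Icam1. The cause of these losses was not tested, except that the leave-outs hold fewer samples.

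The replicate block, over cultures 1, 2 and 3 of each group (6 of the 8 cultures), gave 17 higher and 5 lower probe sets, and log2 fold changes of 1.470 for Cd40 (adjusted p = 0.175), -1.314 and -1.692 for Fcgrt, 1.216 for Icam1 and -1.018 for Cd4, with 0 of 13 member probe sets past the threshold. The labels state no shared batch for equal culture numbers, so the numbers were not taken as pairs. The deviations of same-numbered cultures had correlations of -0.03, 0.00 and -0.01 across all 8740 probe sets. Only 4585 of these had a mean signal above 16, so the correlations are a weak check on pairing. Of the 5 pairs of genes, the difference of Icam1 and Vcam1 had an exact permutation p of 0.036 with 64 added and 0.27 with 1 added, and that of Fcgrt and Fcgr2b 0.018 and 0.32, while the other 3 kept 0.018 under every scaling and constant tried. All 5 pairs were picked after their values were seen, so these p-values only describe the separation of the groups.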
